A study of Mus musculus with 29 samples.

Results

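Chemokines are small secreted or membrane-bound proteins that guide the movement of leukocytes and of some resident brain cells. The CXC and CX3C ligands described here are 8 genes of 25746 in the count tables: Cxcl1, Cxcl9, Cxcl10, Cxcl12, Cxcl13, Cxcl14, Cxcl16 and Cx3cl1. The symbols were chosen with earlier results of these data known. The genes are the rows whose Ensembl identifier belongs to one of these mouse symbols, a rule that used no values. Their levels were followed in 29 brain samples of 8 groups, from mice with or without a photothrombotic stroke of the right sensorimotor cortex, a stroke made by lighting a dye inside cortical vessels. Tissue was taken 21 days after the stroke. Mice were 3 months old and of both sexes. The wildtype (WT) mice had a C57BL/6 background. WT-Tacr mice were WT mice given the calcineurin inhibitor tacrolimus from a subcutaneous pump, from day 0 (acute) or from day 7 (delayed) after the stroke. Rag2-/- mice have an inactive Rag2 gene and form neither T nor B cells that mature, whereas NSG (NOD scid gamma) mice lack natural killer (NK) cells as well and have another genetic background. The samples were 4 non-stroked WT, 3 non-stroked Rag2-/-, 4 non-stroked NSG, 4 stroked WT, 3 acute WT-Tacr, 5 delayed WT-Tacr, 3 stroked Rag2-/- and 3 stroked NSG mice, with every tacrolimus mouse stroked. The labels call the first 3 groups controls, while the methods describe RNA from the contralesional side, so the source of their tissue is uncertain and they are called non-stroked here. No non-stroked tacrolimus-treated sample was analysed here, so non-stroked WT mice served as the controls of WT and of both WT-Tacr groups, and those 3 comparisons share their controls.

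Most inducible CXC ligands are transcribed on inflammatory signals. Cxcl1 binds Cxcr2 and attracts neutrophils. Cxcl9 and Cxcl10 are interferon-induced, bind Cxcr3 and attract activated T cells and NK cells. Cxcl13 binds Cxcr5 and attracts B cells. Cxcl16 and Cx3cl1 are made as membrane-anchored proteins that metalloproteases can shed. Cxcl16 binds Cxcr6, and Cx3cl1 (fractalkine), made largely by neurons in the brain, binds Cx3cr1 on microglia. Cxcl12 binds Cxcr4 and Ackr3 and is made steadily by vessels, meninges and some neurons, and Cxcl14 is a ligand of interneurons and epithelia.

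Levels are given as CPM, counts scaled to the TMM-adjusted library size. A difference is a log2 fold change from edgeR's quasi-likelihood test, fitted over all 8 groups and 17031 genes, and it passed where the Benjamini-Hochberg adjusted p over those genes was below 0.05. Library totals ranged from 17789044 to 43403413 reads. Sample names fall into 2 sets, Imm2 (20 samples, at least 32507506 reads) and TF (9 samples, at most 29928311 reads), called cohorts here. All non-stroked, Rag2-/- and NSG mice were Imm2 and all delayed WT-Tacr mice were TF, whereas stroked WT mice were 2 Imm2 (mice 1 and 2) and 2 TF (mice 3 and 4), and acute WT-Tacr mice were 1 Imm2 (mouse 1) and 2 TF (mice 2 and 3). The Rag2 transcript checked nothing, with counts of 0 in every library outside stroked WT and at most 2 there. Il2rg, the cytokine receptor gene inactivated in NSG mice, was at 0.784 to 0.979 CPM in stroked NSG and 2.11 to 3.46 CPM in stroked WT mice, but at 0.681 to 1.05 and 0.716 to 0.871 CPM without stroke. The T cell marker Cd3d was at 0 in every Rag2-/-, NSG and non-stroked WT library and at 0.0833 to 0.305 CPM in stroked WT mice. Cd3g was also at 0 in every NSG library. Other T cell markers differed. Cd3e and Cd8a each reached 0.0554 CPM in stroked Rag2-/- mice, against up to 0.707 and 0.808 CPM in stroked WT mice. Mean Cd4 was 19.9 CPM in non-stroked and 12.7 CPM in stroked NSG mice, against 7.18 and 15.3 CPM in WT mice. Cd4 thus did not separate these strains. In such tissue samples, fewer cells of a type and less RNA per cell cannot be told apart.

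The genes of Cxcl1, Cxcl9, Cxcl10 and Cxcl13 all lie on chromosome 5, at chr5:90891241-90893115 (GRCm38, plus strand), chr5:92321347-92328079 (minus), chr5:92346638-92348889 (minus) and chr5:95956951-95961068 (plus). Cxcl12 lies at chr6:117168535-117181367 (plus), Cxcl14 at chr13:56288643-56296551 (minus), Cxcl16 at chr11:70453983-70459984 (minus) and Cx3cl1 at chr8:94772009-94782427 (plus), and all 8 are annotated as protein-coding. The chromosome 5 genes were also the members that reached the low-count filter (0.287 CPM in at least 3 samples) only through stroked samples, so a difference in them after stroke was partly built into their being tested. The promoters of Cxcl1, Cxcl9 and Cxcl10 are shown, 3 inducible ligands that were higher after stroke in WT mice. Each is the 250 bases before the RefSeq transcript start in GRCm38.p6, 5′ to 3′ on the gene's strand, with motif matches in capitals, from chr5:90890995-90891244 (plus strand) for Cxcl1, chr5:92328080-92328329 (minus) for Cxcl9 and chr5:92348890-92349139 (minus) for Cxcl10.
Cxcl1: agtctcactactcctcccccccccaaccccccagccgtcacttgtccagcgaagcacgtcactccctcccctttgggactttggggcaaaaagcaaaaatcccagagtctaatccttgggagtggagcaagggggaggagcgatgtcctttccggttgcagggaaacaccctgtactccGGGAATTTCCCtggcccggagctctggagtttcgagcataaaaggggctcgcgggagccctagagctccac
Cxcl9: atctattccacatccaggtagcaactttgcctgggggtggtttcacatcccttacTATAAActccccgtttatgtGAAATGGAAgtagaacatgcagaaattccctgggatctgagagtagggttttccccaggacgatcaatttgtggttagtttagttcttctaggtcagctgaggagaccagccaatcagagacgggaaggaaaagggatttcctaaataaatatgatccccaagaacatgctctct
Cxcl10: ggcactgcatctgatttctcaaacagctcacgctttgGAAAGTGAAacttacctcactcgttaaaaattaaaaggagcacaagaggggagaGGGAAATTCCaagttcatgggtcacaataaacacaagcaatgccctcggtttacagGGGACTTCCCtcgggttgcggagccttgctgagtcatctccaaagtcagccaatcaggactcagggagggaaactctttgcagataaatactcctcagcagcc
The capitals in Cxcl1 are a kappaB site, the motif bound by NF-kB, matched on both strands at overlapping positions 71 to 61 bases before the start. Those in Cxcl10 are 2 kappaB sites (159 to 150 and 103 to 94 bases before the start) and the interferon response element core GAAANNGAA (213 to 205 bases before it), and those in Cxcl9 are that core (175 to 167) and TATAAA (195 to 190). Both strands were searched in the 7 members with a promoter entry, all but Cxcl16. The kappaB site was in 2 of the 7 (Cxcl1, Cxcl10) and in 3.9% of 32851 promoters of the same length, GAAANNGAA in 3 (Cxcl9, Cxcl10, Cxcl14) and 7.13%, and TATAAA in 3 (Cxcl9, Cxcl13, Cx3cl1) and 12.4%. A match describes letters and is not evidence of binding.

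The 8 ligands covered a wide range of levels. Per exon length, the mean level in non-stroked WT mice was 252 ± 11.1 RPKM for Cx3cl1 (CPM per kilobase of exon, SD, n = 4), 43.2 ± 4.20 for Cxcl14 and 6.28 ± 1.06 for Cxcl12. Cxcl16 followed at 0.335 ± 0.128 RPKM. The chromosome 5 ligands were lowest in RPKM, at 0.0487 for Cxcl10, 0.0363 for Cxcl1, 0.0120 for Cxcl13 and 0.00687 for Cxcl9. Cx3cl1, Cxcl14 and Cxcl12 were thus well measured in every library, while Cxcl9 and Cxcl13 rested on 0 to 4 reads in each non-stroked library. For each ligand, ordering the groups by mean CPM left nearly every group overlapping the next in its range over mice. The exceptions were Cxcl1, with stroked Rag2-/- apart from non-stroked NSG mice, and Cxcl9, with stroked WT apart from stroked Rag2-/- mice.

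**Figure D1:**
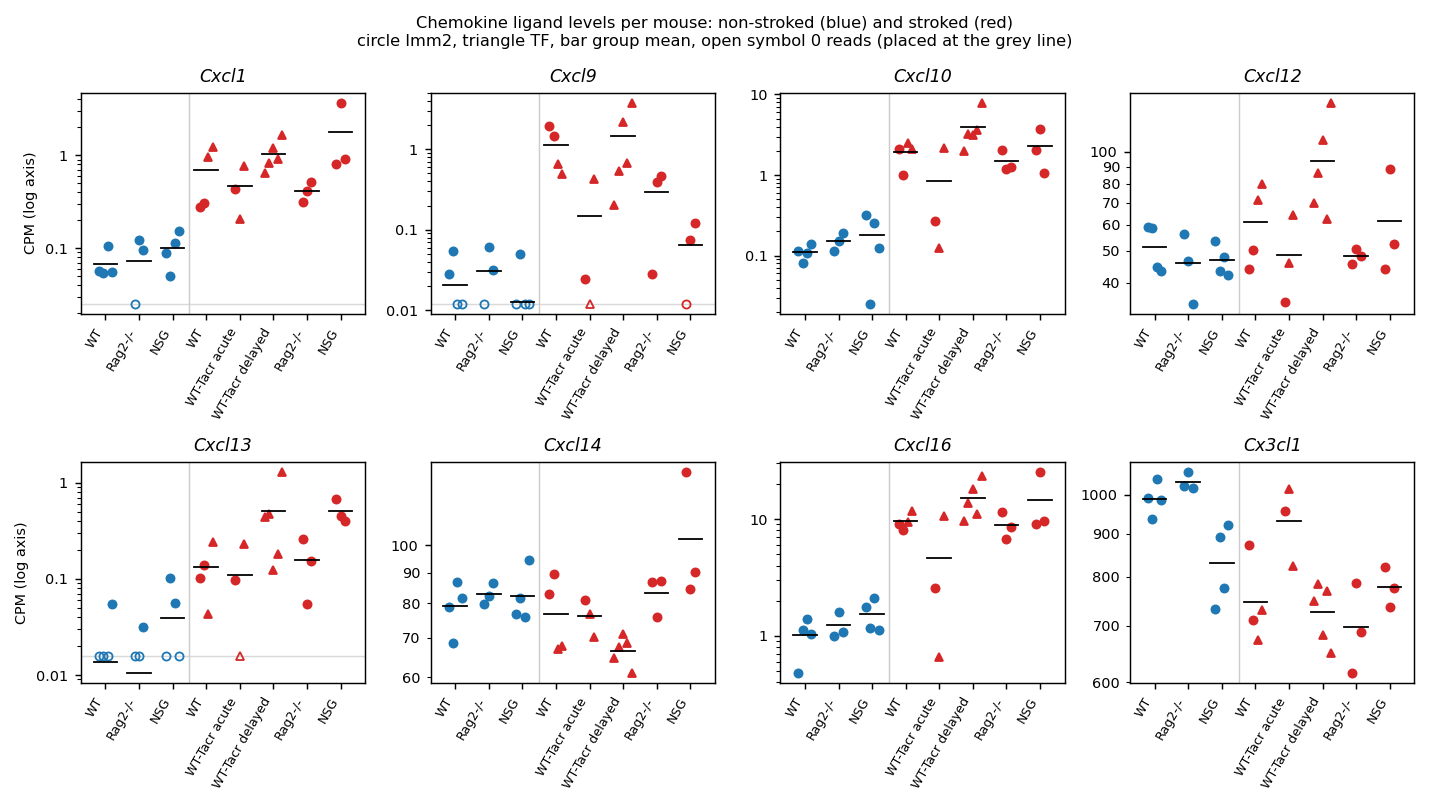
CPM of each ligand in every mouse on log axes, by group, with non-stroked mice in blue and stroked mice in red, circles for Imm2 and triangles for TF, bars at group means and open symbols for 0 reads. Cxcl16 lay between 0.484 and 2.13 CPM in all non-stroked mice, and in the stroked mice acute WT-Tacr mouse 2 alone lay within that range.

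After stroke, inflammatory ligands rose and the neuronal ligand Cx3cl1 fell in most groups. In WT mice Cxcl10 rose 17.0-fold, Cxcl16 9.38-fold and Cxcl1 9.40-fold, and Cx3cl1 was at 0.755 of its non-stroked level. In stroked against non-stroked WT mice 4 of the 8 were higher (Cxcl1, Cxcl9, Cxcl10 and Cxcl16) and 1 was lower (Cx3cl1), where 26.9% of all 17031 genes passed, 15.2% higher and 11.6% lower. In acute WT-Tacr mice 3 were higher (Cxcl1, Cxcl10 and Cxcl16) and none lower, against 8.54% of all genes, 6.18% higher and 2.36% lower. In delayed WT-Tacr mice 6 were higher (all but Cxcl14 and Cx3cl1) and Cx3cl1 was lower, against 55.2% of all genes, 27.6% in each direction. In Rag2-/- mice 2 were higher (Cxcl10 and Cxcl16) and Cx3cl1 was lower, against 8.23% of all genes, 6.71% higher and 1.53% lower. In NSG mice 4 were higher (Cxcl1, Cxcl10, Cxcl13 and Cxcl16) and none lower, against 21.9% of all genes, 13.0% higher and 8.89% lower. Because Cxcl1, Cxcl9, Cxcl10 and Cxcl13 were tested only through their stroked samples, the counts of higher ligands were partly built in. Cxcl10 and Cxcl16 passed in each of the 5 comparisons, although in acute WT-Tacr mice those calls needed mouse 3 and were lost with the cohort as a covariate. Cxcl12 passed only in delayed WT-Tacr mice, and Cxcl14 in none. The delayed comparison set TF mice against Imm2 mice, so cohort and stroke cannot be told apart there without the stroked WT and acute mice of both cohorts. With the cohort as a covariate 5 of the 7 delayed calls stayed, all but Cxcl12 and Cx3cl1. None of the 3 acute calls stayed with it, at adjusted p = 0.338 for Cxcl1, 0.393 for Cxcl10 and 0.320 for Cxcl16.

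**Figure D2:**
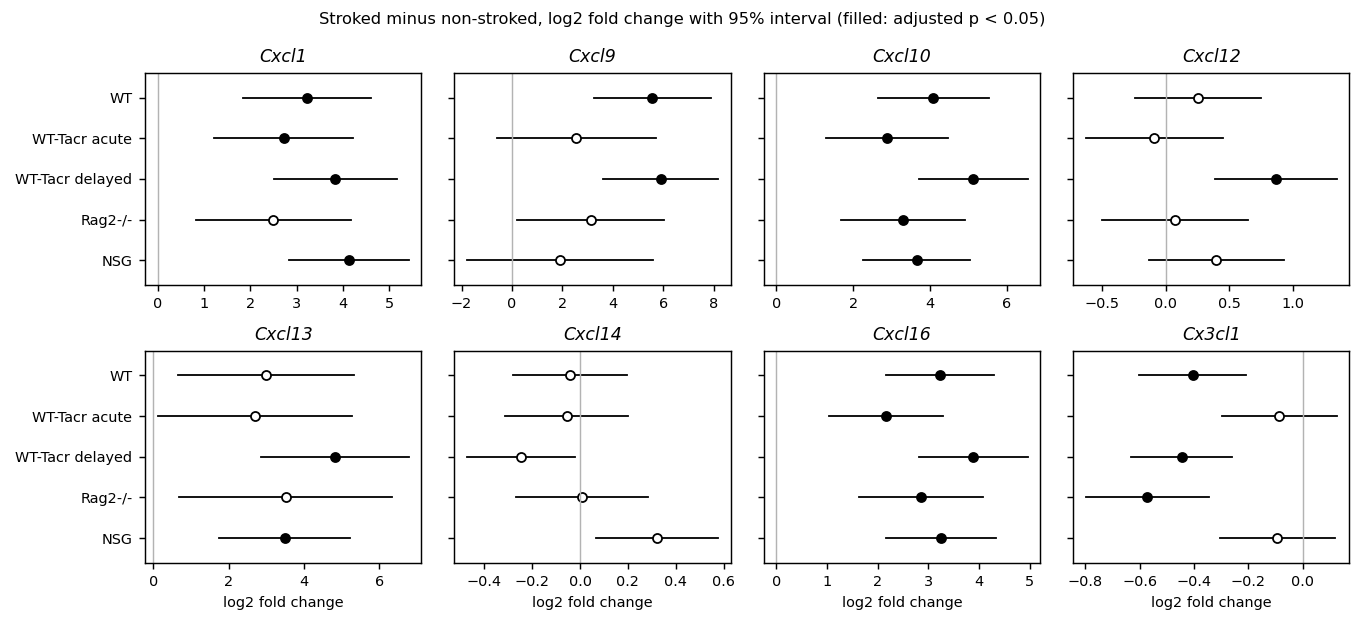
Log2 fold change of each ligand, stroked minus non-stroked, in the 5 stroke comparisons, with 95% intervals from edgeR and filled symbols where the adjusted p was below 0.05. Cxcl10 and Cxcl16 were filled in all 5, while Cxcl14 lay between -0.25 and 0.32 and was filled in none.

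Cxcl1, the neutrophil attractant, was at 0.0569, 0.0544, 0.106 and 0.0550 CPM in the 4 non-stroked WT mice (2 to 4 reads each) and at 0.278, 0.306, 0.956 and 1.22 CPM in stroked WT mice 1 to 4. The groups did not overlap, and both TF mice were above both Imm2 mice. The log2 fold change was 3.23 (SE 0.67, adjusted p = 0.00115). Within Imm2 alone, with stroked mice 1 and 2, it was 2.04 and did not pass (adjusted p = 0.115). Delayed WT-Tacr mice had 0.643, 0.819, 1.20, 0.905 and 1.64 CPM, all above the non-stroked WT mice, a log2 fold change of 3.84 (SE 0.64, adjusted p = 3.20e-05). Stroked NSG mice had 0.810, 3.68 and 0.918 CPM against 0.0877, 0.0508, 0.113 and 0.155 in non-stroked NSG mice, a log2 fold change of 4.13 (SE 0.63, adjusted p = 0.000111). NSG mouse 2 had the most Cxcl1 of all 29 samples. In Rag2-/- mice Cxcl1 was at 0, 0.122 and 0.0953 CPM without and 0.316, 0.416 and 0.521 CPM with stroke, with no overlap, and its log2 fold change of 2.5 did not pass (adjusted p = 0.0566). It passed there within Imm2 alone (adjusted p = 0.0414) and with DESeq2 (adjusted p = 0.0282). Acute WT-Tacr mice had 0.438, 0.208 and 0.773 CPM, all above the non-stroked WT mice, a log2 fold change of 2.72 (SE 0.73, adjusted p = 0.0254).

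Cxcl9, the interferon-gamma-induced ligand of Cxcr3, had few or no reads without stroke and spread widely over the stroked groups. Non-stroked libraries held 1, 2, 0 and 0 reads in the 4 WT mice, 0, 2 and 1 reads in the 3 Rag2-/- mice and 0, 2, 0 and 0 reads in the 4 NSG mice. Stroked WT mice held 77, 52, 15 and 16 reads (1.94, 1.44, 0.652 and 0.489 CPM), above every non-stroked library, with the Imm2 mice above the TF mice. Pooling reads, the stroked level was 59.3 (95% counting interval 19.9 to 290.5) times the non-stroked one, and the fitted change passed (adjusted p = 0.000951). Intervals of pooled reads cover counting error only. Delayed WT-Tacr mice held 5, 17, 53, 15 and 76 reads (0.201, 0.535, 2.19, 0.679 and 3.77 CPM), a pooled ratio of 65.7 (95% counting interval 22.1 to 322), and the fitted change passed (adjusted p = 0.000108). Mouse 1 had the least and mouse 5 the most, 3.77 CPM, the highest of the series. Stroked Rag2-/- mice held 1, 14 and 15 reads, a pooled ratio of 9.63 (95% counting interval 2.99 to 49.3), and the fitted change did not pass (adjusted p = 0.195). Stroked NSG mice held 0, 3 and 4 reads, a pooled ratio of 4.39 (95% counting interval 0.835 to 43.3) with an interval that included 1 (adjusted p = 0.469 for the fitted change). Acute WT-Tacr mice held 1, 0 and 11 reads, a pooled ratio of 6.42 (95% counting interval 1.73 to 35.4), and the fitted change did not pass (adjusted p = 0.284). Mouse 3 gave all but 1 of those reads.

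Cxcl10, which binds the same receptor, rose in every stroke comparison. It was at 0.114, 0.0816, 0.106 and 0.137 CPM in non-stroked and 2.10, 1.0, 2.52 and 2.11 CPM in stroked WT mice, with no overlap. Both TF stroked WT mice were above both Imm2 ones. The log2 fold change was 4.08 (SE 0.70, adjusted p = 0.000179). Delayed WT-Tacr mice had 2.01, 3.24, 3.10, 3.62 and 7.89 CPM and a log2 fold change of 5.12 (SE 0.68, adjusted p = 2.55e-06). Delayed mouse 5 again had the highest value of the series. In Rag2-/- mice the level went from 0.113, 0.152 and 0.191 CPM to 2.07, 1.19 and 1.26 CPM, a log2 fold change of 3.29 (SE 0.78, adjusted p = 0.00930). This call was lost without non-stroked Rag2-/- mouse 1 (adjusted p = 0.0572) or stroked Rag2-/- mouse 1 (adjusted p = 0.0527), with log2 fold changes of 3.11 and 2.99. In NSG mice the level went from 0.322, 0.0254, 0.255 and 0.124 CPM to 2.02, 3.73 and 1.07 CPM, a log2 fold change of 3.65 (SE 0.67, adjusted p = 0.000648). Acute WT-Tacr mice split, at 0.268, 0.125 and 2.16 CPM, with mouse 2 within the non-stroked WT range, mouse 1 between the ranges and mouse 3 within the stroked WT range, and the log2 fold change was 2.88 (SE 0.77, adjusted p = 0.0254). Without acute mouse 3 the log2 fold change was 0.90 and did not pass (adjusted p = 0.650). The Cxcl10 gene lies within Art3 on the opposite strand over all its 2252 bases, and use of strand in counting is not given in the sources used here, so reads of the 2 genes could be mixed. Art3 had a log2 fold change of 0.36 (SE 0.15, adjusted p = 0.0784) in WT mice.

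Cxcl13, the B cell attractant, stood on few reads in most libraries. It had 0, 0, 0 and 2 reads in non-stroked WT, 0, 0 and 1 in non-stroked Rag2-/- and 0, 4, 2 and 0 in non-stroked NSG mice. Stroked NSG mice had 27, 18 and 13 reads (0.683, 0.445 and 0.398 CPM), all above the non-stroked NSG mice, a log2 fold change of 3.49 (SE 0.84, adjusted p = 0.00507). The B cell marker Ms4a1 was at 0 in all 7 NSG libraries and in every stroked Rag2-/- library. Another B cell marker, Cd79a, went the other way, at 0.245 to 0.759 CPM in stroked NSG and 0 to 0.305 CPM in stroked WT mice. Delayed WT-Tacr mice had 11, 15, 3, 4 and 26 reads, a pooled ratio of 35 (95% counting interval 9.27 to 296), and the fitted change passed (adjusted p = 0.000189). Stroked WT mice had 4, 5, 1 and 8 reads, 18 against 2 when pooled, with a 95% counting interval of 2.39 to 88.9 for the ratio, and the fitted change did not pass (adjusted p = 0.0513). It passed with DESeq2 (adjusted p = 0.0427) and without non-stroked WT mouse 5 (adjusted p = 0.0303), the only non-stroked WT mouse with any read. Acute WT-Tacr (4, 0 and 6 reads) and stroked Rag2-/- mice (9, 2 and 5 reads) did not pass (adjusted p = 0.163 and 0.122).

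Cxcl16, the membrane-anchored ligand of Cxcr6, rose in every stroke comparison and was above the filter's 0.287 CPM in every sample. It was at 0.484, 1.12, 1.41 and 1.04 CPM in non-stroked and 8.99, 8.08, 9.48 and 11.7 CPM in stroked WT mice, with no overlap. Both TF stroked WT mice were above both Imm2 ones here too. The log2 fold change was 3.23 (SE 0.52, adjusted p = 0.000110). Delayed WT-Tacr mice had 9.57, 13.7, 18.1, 11 and 23.3 CPM, a log2 fold change of 3.89 (SE 0.52, adjusted p = 2.52e-06). Every mouse of both groups was above all non-stroked mice. In Rag2-/- mice it went from 0.991, 1.61 and 1.08 CPM to 11.6, 6.71 and 8.49 CPM, a log2 fold change of 2.86 (SE 0.59, adjusted p = 0.00334). In NSG mice it went from 1.75, 1.17, 2.13 and 1.11 CPM to 9.06, 25.3 and 9.67 CPM, a log2 fold change of 3.25 (SE 0.52, adjusted p = 0.000178). Mouse 2 was the high NSG mouse here as for Cxcl1 and Cxcl10. In acute WT-Tacr mice it was at 2.58, 0.666 and 10.6 CPM, a log2 fold change of 2.17 (SE 0.55, adjusted p = 0.0196). Without acute mouse 3 the log2 fold change was 0.74 and did not pass (adjusted p = 0.523). Mouse 2 of that group was within the non-stroked WT range and mouse 3 within the stroked WT range. Cxcl16 overlaps Zmynd15 by 552 bases on the opposite strand, and Zmynd15 also changed after stroke in WT mice, with a log2 fold change of 1.84 (SE 0.38, adjusted p = 0.00118). How far reads of that overlap entered either gene was not tested.

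Cx3cl1, the neuronal ligand of the microglial receptor Cx3cr1, was the one member that fell after stroke. It was at 992, 937, 1043 and 985 CPM in non-stroked and 873, 711, 674 and 731 CPM in stroked WT mice, with no overlap, a log2 fold change of -0.40 (SE 0.10, adjusted p = 0.00336), or 0.755 of the non-stroked level. Within Imm2 alone it was -0.32 and did not pass (adjusted p = 0.0924). Rag2-/- mice went from 1024, 1065 and 1018 CPM to 616, 787 and 687 CPM, again apart, a log2 fold change of -0.57 (SE 0.11, adjusted p = 0.00206). These mice were all Imm2. Delayed WT-Tacr mice had 749, 784, 682, 769 and 650.3 CPM, all below the non-stroked WT mice, a log2 fold change of -0.44 (SE 0.090, adjusted p = 0.000239). With the cohort as a covariate it was -0.32 and did not pass (adjusted p = 0.134). NSG mice had 733, 890.5, 775 and 922 CPM without and 822, 737 and 776 CPM with stroke, overlapping ranges with a log2 fold change of -0.093 (SE 0.10, 95% interval -0.31 to 0.12, adjusted p = 0.546). Acute WT-Tacr mice, at 957, 1016 and 823 CPM, overlapped the non-stroked WT mice and had a log2 fold change of -0.086 (adjusted p = 0.611). A list of 6 neuronal markers moved with Cx3cl1 in part, with 4 of 6 lower in WT, 5 in delayed WT-Tacr, 1 in NSG and 0 in acute WT-Tacr or Rag2-/- mice. Of all genes 11.6% were lower in WT, 27.6% in delayed WT-Tacr, 8.89% in NSG, 2.36% in acute WT-Tacr and 1.53% in Rag2-/- mice. Their summed level was 7151 to 7918 CPM in non-stroked and 4799.6 to 6561 CPM in stroked WT mice, and 7143 to 7602 and 5109 to 6577 CPM in Rag2-/- mice. The part of neuron number in the Cx3cl1 level was not tested.

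Cxcl12, the ligand of Cxcr4 that vessels and meninges make steadily, did not pass after stroke in WT, Rag2-/- or NSG mice. It was at 59.1, 58.7, 44.5 and 43.3 CPM in non-stroked and 44.0, 50.1, 71.3 and 79.8 CPM in stroked WT mice, where the Imm2 mice lay within the non-stroked range and the TF mice above it. The log2 fold change was 0.25 (SE 0.24, 95% interval -0.24 to 0.75, adjusted p = 0.457), and -0.12 within Imm2 alone. Delayed WT-Tacr mice, all TF, had 69.9, 86.4, 109, 62.6 and 141 CPM, above the non-stroked WT mice, with a log2 fold change of 0.87 (SE 0.23, adjusted p = 0.00304). With the cohort as a covariate it was 0.19 and did not pass (adjusted p = 0.755). Rag2-/- mice had 56.2, 46.5 and 34.6 CPM without and 45.7, 50.7 and 48.2 CPM with stroke, and NSG mice 53.5, 43.4, 47.7 and 42.3 CPM without and 44.0, 88.5 and 52.4 CPM with stroke. Their log2 fold changes were 0.075 (SE 0.28, 95% interval -0.50 to 0.65, adjusted p = 0.924) and 0.40 (SE 0.26, 95% interval -0.13 to 0.93, adjusted p = 0.276). Cxcl14 stayed between 61.1 and 133 CPM over all 29 mice. It was at 78.9, 68.6, 86.8 and 81.7 CPM in non-stroked and 82.9, 89.5, 66.9 and 67.7 CPM in stroked WT mice, a log2 fold change of -0.041 (SE 0.12, 95% interval -0.28 to 0.20, adjusted p = 0.821). The highest value was stroked NSG mouse 1, in a group at 133, 84.4 and 90.3 CPM against 76.8, 81.5, 75.7 and 94.4 CPM without stroke, where the log2 fold change of 0.32 did not pass (adjusted p = 0.0636). It passed without non-stroked NSG mouse 4, stroked NSG mouse 2 or stroked NSG mouse 3, with adjusted p = 0.0207 at the least and 0.0379. Delayed WT-Tacr mice had 64.8, 67.5, 71.0, 68.5 and 61.1 CPM, and their log2 fold change of -0.25 did not pass (adjusted p = 0.0592) and was 0.025 with the cohort as a covariate.

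Tacrolimus was compared directly among stroked mice. Of the 8 ligands 0 passed between acute WT-Tacr and WT mice in edgeR, where 0% of all genes passed, and 3 had an unadjusted p below 0.05 where 12.7% of all genes did. DESeq2 passed 0. The acute mice were not alike. Mouse 3 had the levels of stroked WT mice in Cxcl10 (2.16 CPM) and Cxcl16 (10.6 CPM), while mice 1 and 2 were lower than every stroked WT mouse in both. The same mice differed in marker lists. The summed level of 4 fibroblast and meningeal markers was 37.9, 17.3 and 245 CPM in acute mice 1 to 3, 18.8 to 26.6 CPM in non-stroked WT and 184 to 384 CPM in stroked WT mice. For 7 microglia and macrophage markers it was 268, 241 and 523 CPM, 186 to 219 CPM and 490.4 to 564 CPM. How much lesioned tissue each sample held was not tested. Without mouse 3 the stroke comparison of acute mice passed 0 ligands in place of 3, with log2 fold changes of 2.23 for Cxcl1, 0.90 for Cxcl10 and 0.74 for Cxcl16 (adjusted p = 0.242, 0.650 and 0.523). Against stroked WT mice, leaving it out passed 4, with Cxcl9 at -5.92, Cxcl10 at -3.16, Cxcl16 at -2.47 and Cx3cl1 at 0.41 on the log2 scale (adjusted p = 0.0166, 0.00437, 0.00301 and 0.0268). Leaving out non-stroked WT mice 1, 3, 4 or 5 also moved the acute stroke count, to 0, 1, 2 and 1.

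No ligand passed between delayed WT-Tacr and stroked WT mice in edgeR (0 of 8, with 0% of all genes). An unadjusted p below 0.05 was reached by 3 ligands, and by 20.3% of all genes. DESeq2 gave 0, with no adjusted p for 7 of the 8. The log2 fold changes of delayed minus WT were 0.61 (SE 0.23, 95% interval 0.14 to 1.09, adjusted p = 0.170) for Cxcl12 and 0.66 (SE 0.43, 95% interval -0.22 to 1.55, adjusted p = 0.374) for Cxcl16. Within TF alone they were 0.32 and 0.52. In delayed against acute mice, 5 ligands passed, with Cxcl9, Cxcl10, Cxcl12 and Cxcl16 higher and Cx3cl1 lower in delayed mice, where 20.3% of all genes passed, 10.4% higher and 9.96% lower. The log2 fold changes were 3.35 (SE 0.98, adjusted p = 0.0206) for Cxcl9 and 2.25 (SE 0.61, adjusted p = 0.0150) for Cxcl10. They were 0.96 (SE 0.26, adjusted p = 0.0149) for Cxcl12 and 1.72 (SE 0.50, adjusted p = 0.0209) for Cxcl16. For Cx3cl1 the difference was -0.36 (SE 0.10, adjusted p = 0.0153). The delayed and acute ranges overlapped in Cxcl9, Cxcl10, Cxcl12 and Cxcl16 through acute mouse 3, and in Cx3cl1 they were apart. None of the 5 passed without acute mouse 1 or without acute mouse 2, Cx3cl1 alone passed without delayed mouse 5, and 6 passed without acute mouse 3. Within TF alone, 5 delayed against 2 acute mice, 0 passed. The log2 fold changes there were 2.73 for Cxcl9, 1.79 for Cxcl10 and 1.43 for Cxcl16. For acute mice 1 and 2, the mouse number in the sample title differed from that in the name of the deposited table. The start day of tacrolimus and the 2 acute mice with low lesion markers cannot be told apart.

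**Figure D3:**
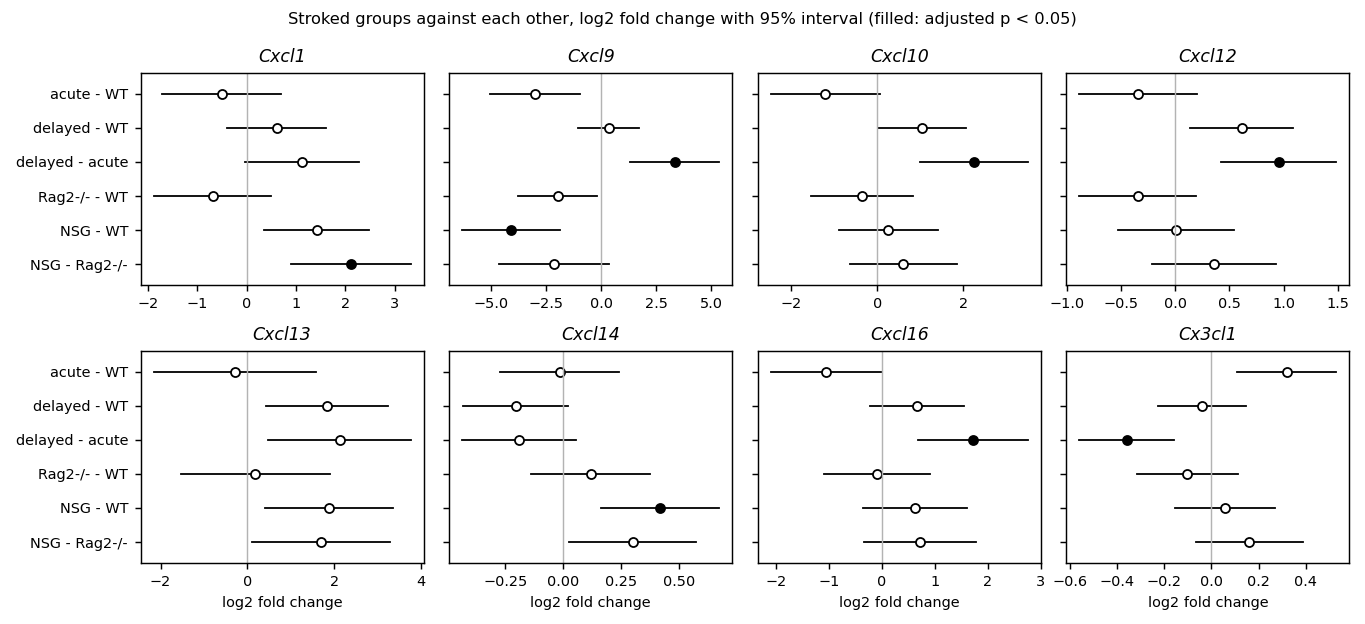
Log2 fold change of each ligand between stroked groups, with 95% intervals from edgeR and filled symbols where the adjusted p was below 0.05. Cxcl9 lay at -4.11 in NSG against WT mice and at 3.35 in delayed against acute WT-Tacr mice, both filled.

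Between strains, Cxcl9 separated stroked NSG from stroked WT mice. Cxcl9 reached the low-count filter only through stroked mice outside NSG, so a lower level in NSG mice was partly built into its being tested. The stroked WT mice held 77, 52, 15 and 16 reads and the stroked NSG mice 0, 3 and 4, with no overlap, and the log2 fold change was -4.11 (SE 1.08, adjusted p = 0.0127). Within Imm2 alone, with the 3 NSG mice and WT mice 1 and 2, it was -4.68 (adjusted p = 0.00240). The call was lost without stroked NSG mouse 1 (log2 fold change -3.52, adjusted p = 0.0732), the one with 0 reads. Cxcl14 was also higher in stroked NSG mice, with a log2 fold change of 0.42 (SE 0.12, adjusted p = 0.0271), and 2 of the 8 ligands passed where 12.9% of all genes did, 6.60% higher and 6.27% lower. The Cxcl14 call was lost without stroked NSG mouse 1, stroked WT mouse 3 or stroked WT mouse 4, and within Imm2 alone the difference was 0.24 (adjusted p = 0.425). Cxcl1 did not pass with both cohorts (log2 fold change 1.42, adjusted p = 0.0721) and passed within Imm2 alone (2.63, adjusted p = 0.0256), and also without stroked NSG mouse 1, stroked NSG mouse 3 or stroked WT mouse 4. Stroked NSG exceeded stroked Rag2-/- mice in Cxcl1, all of them Imm2, by 2.11 (SE 0.59, adjusted p = 0.0255) on the log2 scale with no overlap, 1 ligand of 8 where 8.44% of all genes passed. That call was lost without NSG mouse 2 (1.04, adjusted p = 0.213) or without any of the 3 Rag2-/- mice. No ligand passed between stroked Rag2-/- and WT mice in edgeR (0 of 8, 0.00587% of all genes) or in DESeq2, and 1 had an unadjusted p below 0.05, as did 7.02% of all genes. Cxcl9 was lower in all 3 stroked Rag2-/- mice (0.0287, 0.388 and 0.460 CPM) than in the 4 stroked WT mice, a log2 difference of -1.97 (SE 0.87, 95% interval -3.76 to -0.17, adjusted p = 0.707).

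The same question was put as a difference of stroke responses, each strain against its own non-stroked mice. For Rag2-/- minus WT, 0 of the 8 ligands passed (0% of all genes), 0 had an unadjusted p below 0.05 (4.19% of all genes) and DESeq2 passed 0. For NSG minus WT, 0 passed (0.0294% of all genes), 2 had an unadjusted p below 0.05 (12.7% of all genes) and DESeq2 passed 0. The difference for Cx3cl1 was 0.31 (SE 0.14, 95% interval 0.023 to 0.60, adjusted p = 0.359) in NSG and -0.17 (SE 0.15, 95% interval -0.47 to 0.13, adjusted p = 0.950) in Rag2-/- mice. For Cxcl9 it was -3.66 (SE 3.06, 95% interval -9.97 to 2.64, adjusted p = 0.621) in NSG mice, on non-stroked groups of 2 and 3 reads. Intervals this wide do not show that the strains responded alike. Without stroke, 0 ligands passed between NSG and WT mice in edgeR (9.76% of all genes), 1 had an unadjusted p below 0.05 (22.9% of all genes) and DESeq2 passed 0. Between Rag2-/- and WT mice 0 passed (0.00587% of all genes), 0 had an unadjusted p below 0.05 (2.05% of all genes) and DESeq2 passed 0. Between NSG and Rag2-/- mice 0 passed (6.33% of all genes), 1 had an unadjusted p below 0.05 (18.2% of all genes) and DESeq2 passed 1, Cx3cl1. Cx3cl1 was lower in all 4 non-stroked NSG mice than in every non-stroked WT or Rag2-/- mouse. Its differences were -0.25 (SE 0.10, adjusted p = 0.0979) against WT and -0.32 (SE 0.10, adjusted p = 0.0640) against Rag2-/- mice, and the latter passed without non-stroked NSG mouse 4 (adjusted p = 0.0418).

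The receptors were compared in the same fits, with 7 of 9 tested and Cxcr1 and Cxcr5 too low. After stroke in WT mice 5 were higher and none lower, with a median log2 fold change of 1.82 over the 7. They were Cxcr2, the receptor of Cxcl1, at 3.55 (adjusted p = 0.0166), Cxcr3, that of Cxcl9 and Cxcl10, at 1.82 (adjusted p = 0.0338), Cxcr4, that of Cxcl12, at 2.26 (adjusted p = 0.00130), Cxcr6, that of Cxcl16, at 2.96 (adjusted p = 0.0202) and Cx3cr1, that of Cx3cl1, at 0.73 (adjusted p = 0.00118). In delayed WT-Tacr mice 6 were higher, these 5 and the atypical receptor Ackr1, with Cxcr4 at 2.95 (adjusted p = 1.84e-05). Rag2-/- mice passed 1, Cxcr4 at 2.11 (adjusted p = 0.0173). NSG mice passed 2, Cxcr4 at 1.70 (adjusted p = 0.0138) and Cx3cr1 at 0.52 (adjusted p = 0.0226). Acute WT-Tacr mice passed 1, Ackr1 at 0.40 (adjusted p = 0.0319). Cxcr3 and Cxcr6, both carried by T cells, did not pass in acute WT-Tacr, Rag2-/- or NSG mice. Mean Cxcr3 levels in stroked mice were 0.201 CPM (WT), 0.0867 CPM (Rag2-/-) and 0.050 CPM (NSG), and mean Cxcr6 levels were 0.242, 0.0306 and 0.0247 CPM. Compared directly, 0 of the 7 receptors passed between stroked Rag2-/- and stroked WT mice, where 0.00587% of all genes passed. Between stroked NSG and stroked WT mice 0 passed as well, where 12.9% of all genes did. For Ackr3, which takes up Cxcl12, no stroke comparison passed. The counts of the stroke comparisons stand against the same shares of all genes as the ligands, from 8.23% in Rag2-/- to 55.2% in delayed WT-Tacr mice.

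Other ligands, proteases and regulators were taken from lists of genes by their known roles, written with earlier results of these data known. Among all genes the share that was higher was 15.2% for WT, 6.18% for acute and 27.6% for delayed WT-Tacr, 6.71% for Rag2-/- and 13.0% for NSG mice. Of 8 other CXC ligands 3 were tested, and all 3 were higher in WT mice: Cxcl5 at 4.16 (adjusted p = 0.00110), Pf4, a platelet ligand, at 1.51 (adjusted p = 0.0138), and Cxcl2, at 0 reads in every non-stroked WT mouse and 0.159 CPM on average in stroked WT mice (adjusted p = 0.0336). Delayed WT-Tacr mice also passed 3, acute WT-Tacr mice 1 (Cxcl5), Rag2-/- mice 1 (Cxcl5, at 4.72 with adjusted p = 0.00786) and NSG mice 0, where Cxcl5 was at 1.82 (adjusted p = 0.187). Of 6 proteases that shed or clip these ligands, 3 were higher in WT mice: Adam17, which sheds Cx3cl1, at 0.49 (adjusted p = 0.0287), Mmp2 at 1.94 (adjusted p = 0.00138) and the microglial protease Ctss at 2.09 (adjusted p = 4.54e-05). The same 3 passed in delayed WT-Tacr and NSG mice, Mmp2 and Ctss in Rag2-/- mice and Ctss alone in acute WT-Tacr mice, while Adam10, which sheds Cxcl16 and Cx3cl1, passed in none. Of 11 interferon and NF-kB genes 9 were tested, with Ifng and Ifnb1 too low. In WT mice 4 were higher, Irf1 at 0.82 (adjusted p = 0.00976), Irf7 at 1.36 (adjusted p = 0.0119), Irf8 at 1.64 (adjusted p = 0.000116) and the NF-kB inhibitor Nfkbia at 0.96 (adjusted p = 0.000539). In delayed WT-Tacr mice 7 were higher, all but Stat2 and Rela. Rag2-/- mice passed 2 (Irf8 and Nfkbia), acute WT-Tacr mice 1 (Nfkbia) and NSG mice 4 (Irf8, Nfkb1, Nfkbia and Nfkbiz). No gene of the 4 lists was lower in any stroke comparison.

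**Figure D4:**
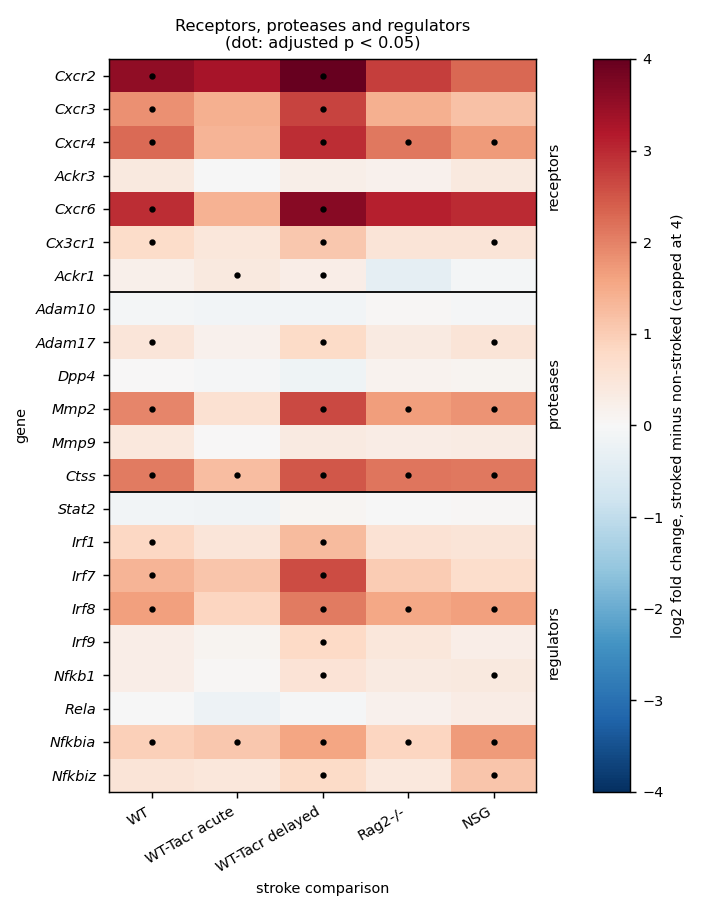
Log2 fold change, stroked minus non-stroked, of the receptors, proteases and regulators that passed the low-count filter in the 5 stroke comparisons, by list, with colours capped at 4 and a dot where the adjusted p was below 0.05. Cxcr4 carried a dot in 4 of the 5 comparisons, all but acute WT-Tacr.

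Within groups, some ligands varied together from mouse to mouse. After subtracting each group's mean log2 CPM, Cxcl10 and Cxcl16 had a Pearson r of 0.80 (Spearman rho 0.66) over the 29 mice, 0.63 without the 3 acute WT-Tacr mice, 0.62 without the 2 mice farthest in Cxcl10 and 0.81 over 28 mice with means taken within group and cohort. Cxcl1 and Cxcl16 had r = 0.64 (rho 0.64), and 0.61 without the acute mice. Cxcl9 and Cxcl10, which share a receptor, had r = 0.33 (rho 0.0914) and 0.0173 without the acute mice, so their covariation rested on that group. Cxcl12 and Cxcl14 moved in opposite directions, with r = -0.67 (rho -0.68), and -0.58 within group and cohort. Cx3cl1 went against Cxcl10 (r = -0.58), Cxcl12 (r = -0.58) and Cxcl16 (r = -0.58). All 28 pairs were computed. These values describe the 29 samples, which differ in depth and in choroid plexus level, and carry no test. The summed level of 6 choroid plexus genes, which ranged from 203 to 2665 CPM over the samples, had r = -0.49 with Cx3cl1 and between -0.24 and 0.22 with the other ligands.

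**Figure D5:**
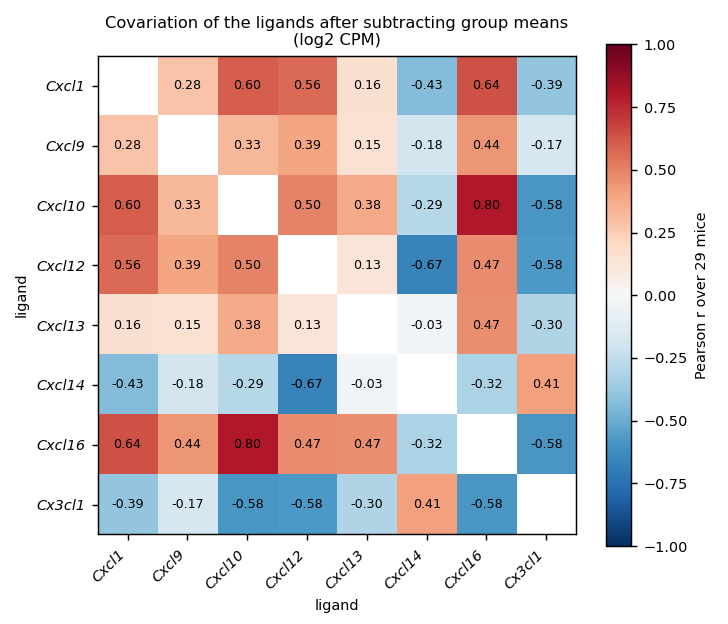
Pearson r between the log2 CPM of each pair of ligands over 29 mice after subtracting group means. The warmest pair is Cxcl10 with Cxcl16 (0.80) and the coldest Cxcl12 with Cxcl14 (-0.67).

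The genes whose within-group pattern was most like each ligand were ranked by the same Pearson r, over 29 mice among the genes averaging 1 CPM or more. Group means do not remove cohort differences within stroked WT and acute WT-Tacr mice. The ranking was not repeated within cohort or without the acute mice. For Cxcl1 they were Tgm2 (r = 0.83), a transglutaminase, Fstl1 (r = 0.83) and Car13 (r = 0.82). For Cxcl9 they were Zmynd15 (r = 0.69), Trafd1 (r = 0.66) and Slamf7 (r = 0.66). For Cxcl10 they were Traf1 (r = 0.90), Ang (r = 0.89) and Vim (r = 0.89), the last the intermediate filament vimentin. For Cxcl12 they were Pdgfrb (r = 0.89), a pericyte receptor, Cd93 (r = 0.89) and Adgre5 (r = 0.88). Cxcl13 had lower values, led by Nmi (r = 0.70), Igkc (r = 0.69) and Mcub (r = 0.67). For Cxcl14 they were Atf4 (r = 0.93), Acot13 (r = 0.92) and Cox6a1 (r = 0.92). For Cxcl16 they were Ucp2 (r = 0.93), Fcgr4 (r = 0.93), an Fc receptor of myeloid cells, and Serping1 (r = 0.93), the C1 inhibitor. For Cx3cl1 they were Atcay (r = 0.88), St3gal3 (r = 0.88) and Atg9a (r = 0.88).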

How the data were processed

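RNA of 29 samples of microdissected brain tissue was polyA-selected and made into stranded libraries (per the study's methods). The authors deposited 1 table of raw read counts per gene for each sample. The aligner, its build and the use of strand in counting are not given in the sources used here. Counts were used as deposited, and all 25746 Ensembl genes entered the library sizes, which set the precision. GENCODE M21 (GRCm38) gave names and positions for 25712 identifiers, and RefSeq (GRCm38.p6) the promoters. The main test was edgeR 4.0.16 in R 4.3.3 (TMM, filterByExpr by group with a minimum count of 10, 17031 genes, quasi-likelihood fit of 8 groups) and, as an alternative, DESeq2 1.42.0. The SE is the absolute log2 fold change divided by the square root of F. RPKM was computed from TMM-adjusted CPM and exon length. Samples carry separate mouse names and were treated as separate mice, and p-values measure the spread between samples on that footing. If the non-stroked tissue was contralesional, it could come from stroked mice, and the p-values make no allowance for such sharing. The study lists fewer NSG and tacrolimus mice for sequencing than there are samples here. For acute WT-Tacr mice 1 and 2 the mouse number in the title differed from that in the name of the deposited table, and each table was used for the sample it was deposited under. No pair of libraries was a duplicate. All 8 members, the listed genes that passed in a stroke comparison or bind a member, and the 3 genes most like each member by Pearson r were to be named. The members and lists were chosen with earlier results of these data known. The direct comparisons of stroked strains and the choroid plexus covariate were added after the data were seen. The fit was tested on simulated data. Some listed genes and motifs are not reported here.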

Additional observations from a re-analysis of the deposited data

Results flagged for a closer look

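Among 32 combinations of a ligand with a group of 4 or 5 mice, 4 had 1 mouse far from the others by Dixon's test. Its rate of about 1 in 20 by chance is for continuous values and does not hold for tied low counts. With such counts, a mouse that alone had reads was always flagged. Non-stroked WT mouse 4 had 0.106 CPM of Cxcl1, on 4 reads where the others had 2. Non-stroked NSG mouse 2 had 0.0508 CPM of Cxcl9, on 2 reads where the others had 0. Non-stroked WT mouse 5 had 0.0550 CPM of Cxcl13, on 2 reads where the others had 0. Delayed WT-Tacr mouse 5 had 7.89 CPM of Cxcl10 against at most 3.62 CPM in the other delayed mice, and it also had the most Cxcl1, Cxcl9, Cxcl12, Cxcl13 and Cxcl16 and the least Cx3cl1 of that group.

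Among stroked WT-Tacr mice 5 ligands passed edgeR's test of delayed minus acute, in which the start day and the low lesion markers of 2 acute mice cannot be told apart. The log2 differences were 3.35 for Cxcl9, 2.25 for Cxcl10, 0.96 for Cxcl12, 1.72 for Cxcl16 and -0.36 for Cx3cl1. None of the 5 passed without acute mouse 1, without acute mouse 2, within TF or with only the groups compared.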

How the results depend on the processing

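The alternatives were another normalization (RLE), no low-count filter, DESeq2, an absolute log2 fold change above 1, each cohort alone or the cohort as a covariate, a fit with no other groups than those compared, a replicate block, the choroid plexus level as a covariate and leaving out each mouse. Without counting the fits that leave out a mouse, 108 counts of passing ligands stayed within 1.5 times the reported one and 12 did not. Of the ligand differences, 800 kept their side of the threshold and their direction, apart from 19 that crossed 0 on a move of at most 1 SE, 12 came to pass, 31 no longer passed and 18 reversed on a move of more than 1 SE. In WT mice the stroke count was 3 in place of 5 within Imm2. In acute WT-Tacr mice it was 0 in place of 3 with the cohort as a covariate and within Imm2 (1 acute mouse). With only the groups compared, 4 ligands were below the filter in acute and in the non-stroked comparisons, which gave no count, and Cxcl16 did not pass in acute mice (adjusted p = 0.131). The delayed minus acute count of 5 was 3 with the minimum fold change, and 0 with the choroid plexus covariate, with only the groups compared and within TF. The stroked NSG minus WT count of 2 was 1 with the minimum fold change and with only the groups compared. The stroked NSG minus Rag2-/- count of 1 was 0 with only the groups compared, and the non-stroked NSG minus Rag2-/- count of 0 was 1 with the cohort as a covariate and with DESeq2. The cause of these shifts was not tested.

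The 18 reversed differences, none of which passed, arose with the cohort as a covariate or within 1 cohort. For stroke in WT mice Cxcl12 was at -0.12 with the covariate and -0.12 within Imm2, and Cxcl14 at 0.084 and 0.13. With the covariate Cxcl14 was at 0.12 in acute and 0.025 in delayed mice. Within Imm2 the acute minus WT difference of Cxcl1 was 0.59, and within TF the delayed minus WT differences were 0.054 for Cx3cl1 and -0.083 for Cxcl1. For stroked Rag2-/- minus WT mice, with the covariate and within Imm2, Cxcl1 was at 0.094 and 0.53, Cxcl12 at 0.030 and 0.049 and Cxcl14 at -0.0072 and -0.034. The difference of stroke responses, Rag2-/- minus WT, was 0.20 and 0.21 for Cxcl12, and 0.47 for Cxcl1 within Imm2.

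Leaving out 1 mouse at a time, the count ranged from 0 to 3 for stroke in acute mice, 0 to 1 for non-stroked NSG minus Rag2-/-, 0 to 4 for acute minus WT, 0 to 6 for delayed minus acute, 1 to 3 for stroked NSG minus WT and 0 to 1 for stroked NSG minus Rag2-/- mice. Of the 128 log2 differences 31 crossed 0 without 1 mouse, none of them passing, and 8 of the 31 moved by more than 1 SE. These were Cxcl9 in acute mice (-0.37 to 3.45) and in delayed minus WT (-0.36 to 0.73), Cxcl13 in non-stroked Rag2-/- minus WT (-2.21 to 1.86) and in the response of Rag2-/- minus WT (-1.67 to 2.40), and Cxcl1 in the response of NSG minus WT (-0.15 to 1.37). The others were Cxcl12 (-0.34 to 0.21) and Cxcl16 (-0.024 to 0.88) in stroked NSG minus WT and Cxcl12 in stroked NSG minus Rag2-/- mice (-0.0030 to 0.55). Replicate numbers shared by non-stroked groups did not pair the mice (correlation of deviations between -0.23 and 0.11), and with a replicate block 0 of the 4 ligands above the filter passed in each of the 3 non-stroked comparisons, as without it on the same samples. Depth limits Cxcl9 and Cxcl13, whose non-stroked libraries held 0 to 4 reads, so differences between non-stroked groups could be missed. For non-stroked NSG over WT mice, the 95% counting interval of the pooled ratio was 0.0576 to 6.02 for Cxcl9 and 0.555 to 31.4 for Cxcl13.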
